A study of Arabidopsis thaliana with 3 samples.

Results

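The NAC genes described here are 10 Arabidopsis loci that encode transcription factors of abiotic stress and of leaf senescence, out of 27444 nuclear protein-coding genes. They were taken by locus: RD26 (AT4G27410), NAC019 (AT1G52890), NAC055 (AT3G15500), NAC032 (AT1G77450), NAC102 (AT5G63790), ATAF1 (AT1G01720), NAP (AT1G69490), NAC047 (AT3G04070), NAC092 (AT5G39610, also called ORE1) and ANAC087 (AT5G18270). At each locus every DIG1 and DIG2 ChIP-seq summit inside the gene or within 5000 bp of either end was collected, which gave 42 of the 13459 DIG1 summits and 47 of the 16562 DIG2 summits. No summit was shared between the windows of different members.

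The samples were whole Col-0 seedlings, grown in the dark for 4 days and given 10 uM dexamethasone for 6 h. They expressed a GFP fusion of DIG1 (labelled AT3G45810), a GFP fusion of DIG2 (labelled AT5G50360) or GFP alone, with 1 sample per group, and all were precipitated with the same GFP antibody. The labels do not name the promoter of the fusions, and a peak list of the GFP sample was not analysed here. In the DIG1 list 2 summits lay inside AT3G48510 (highest fold 6.82) and none inside AT3G45810. The DIG2 list had none in either gene. A DIG1 summit lay inside 11.9% of all protein-coding genes, a share that takes no account of fold or of absence from the DIG2 list. In the whole DIG1 list 94.7% of summits had a DIG2 summit within 100 bp, and the others had a median fold of 2.36. Whether the summits inside AT3G48510 mark the tagged locus was not tested. The locus in the DIG1 label is printed as written and was not verified. The series' design text speaks of replicates, but the labels give 1 sample per group and 1 peak list per factor was analysed, so there is no replicate error and no test, so counts are set beside the same count over all protein-coding genes.

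NAC proteins bind DNA through a conserved N-terminal domain and carry a variable C-terminal part that regulates transcription. Many NAC genes are themselves switched on by drought, salt, abscisic acid (ABA), jasmonate, ethylene or age, and some then activate genes for chlorophyll breakdown, nutrient export and cell death. RD26, NAC019 and NAC055 are close relatives in the ABA and jasmonate responses. ATAF1, NAC032 and NAC102 belong to the ATAF group, while NAP, NAC047, NAC092 and ANAC087 are best known from senescence, leaf movement and programmed cell death.

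All 10 genes had summits of both factors, within 5000 bp and also within 1000 bp. A DIG1 summit inside the gene or within 5000 bp was found at 67.3% of all protein-coding genes and a DIG2 summit at 71.7%, and for a 3000 bp window the shares were 54.9% and 59.7%. Having a summit in windows this wide was thus common. For the 1000 bp window they were 37.7% of all genes for DIG1 and 42.3% for DIG2, and 36.3% had a summit of both.

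Most members held a site among the strongest of each list. The members were chosen with earlier results of these data known, so high counts among them are not independent support. A summit among the 1000 strongest of its list, ranked by the authors' −log10 p, lay within 5000 bp of 6 members for DIG1, against 10.7% of all genes. For DIG2 it lay within 5000 bp of 7 members, against 9.71% of all genes. Within 1000 bp it was 5 of 10 members for each list, against 3.82% of all genes for DIG1 and 3.36% for DIG2. ANAC087 and NAC047 held summits among the 100 strongest DIG1 summits (1.16% of all genes), and ANAC087, NAP and NAC047 did so in the DIG2 list (1.13% of all genes).

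Ranks below are by −log10 p within a list. Folds are the authors' fold enrichment of a summit over the modelled background, and they rank summits within 1 list only. Left and right mean the sides of lower and higher coordinate on TAIR10, because the gene table used gives no strand. The highest fold per member had a median of 8.32 in the DIG1 list and 11.8 in the DIG2 list. Over all genes with a summit in the window these medians were 4.07 for DIG1 and 5.21 for DIG2.

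**Figure D1:**
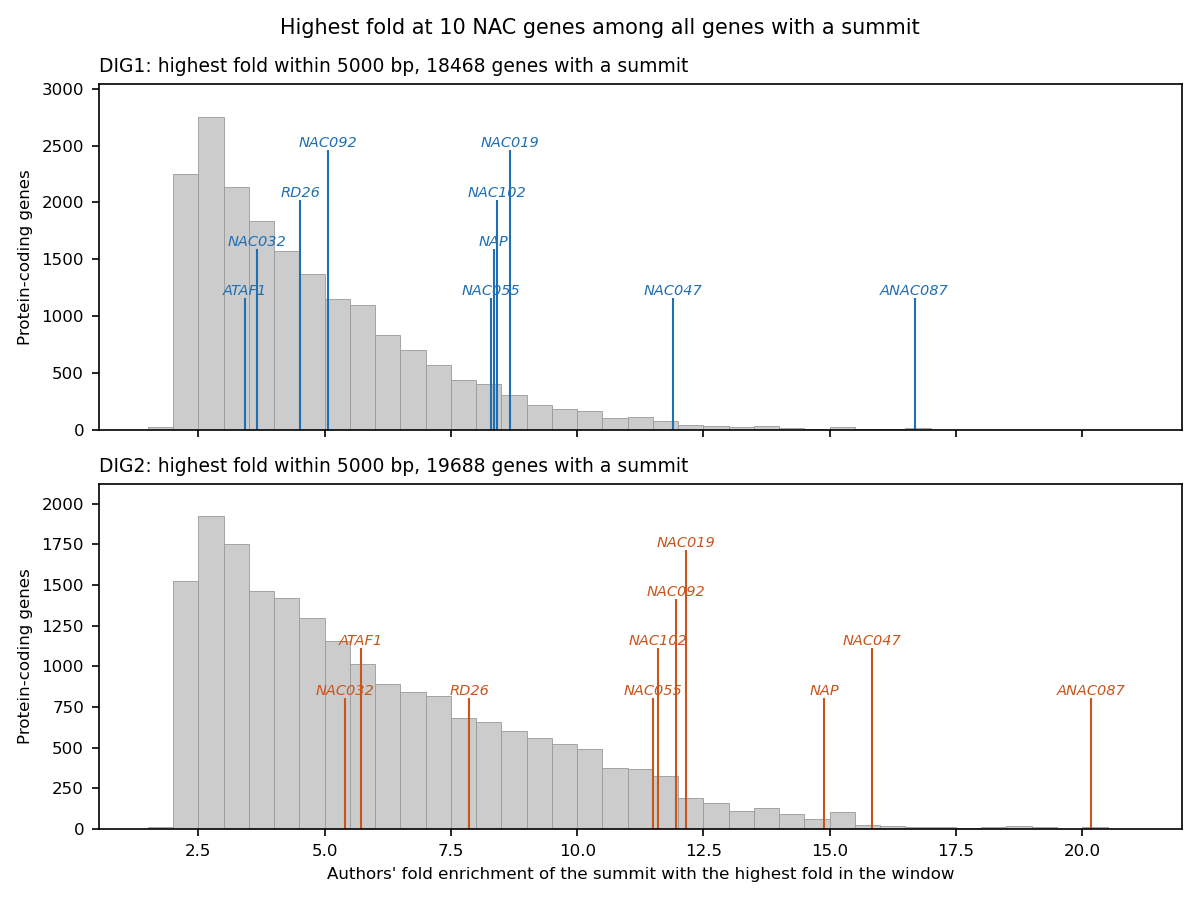
Number of protein-coding genes (vertical axis) by the highest authors' fold of any summit inside the gene or within 5000 bp (horizontal axis), for 18468 genes with a DIG1 summit (top) and 19688 with a DIG2 summit (bottom). Coloured lines mark the 10 NAC genes, of which ANAC087 lies at the far right with folds of 16.7 and 20.2, and ATAF1 and NAC032 lie within the bulk of genes.

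ANAC087, which acts in programmed cell death of the root cap, held the strongest sites of the group. Its top DIG1 summit (chromosome 5, position 6046176) had a fold of 16.7, which is the highest fold of all 13459 DIG1 summits, and rank 10 by −log10 p. The DIG2 summit at position 6046187 had a fold of 20.2 and ranked 3 by both measures. Both lay to the right, 3162 and 3173 bp outside the gene, in a stretch where ANAC087 was the nearest protein-coding gene and the next gene on that side was the apyrase gene APY2. A gene with so strong a DIG1 summit in its window was found in 0.0984% of all genes, and with so strong a DIG2 summit in 0.0437%.

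The other sites at ANAC087 were far weaker. On the left, 881 and 873 bp outside the gene, a DIG1 summit had a fold of 3.84 and a DIG2 summit a fold of 6.74. On the right, a DIG1 summit 398 bp and a DIG2 summit 416 bp outside had folds of 2.61 and 4.21. In the DIG1 list the strongest fold at this gene was 4.35 times the fold of the next strongest summit, and in the DIG2 list 2.99 times, so a single distant site dominated. DIG2 alone had a summit 34 bp inside the right end (fold 2.28) and one 4554 bp to the right (fold 2.74). A DIG1 interval covered the first of these positions and not the second.

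NAC047, also named SPEEDY HYPONASTIC GROWTH for its part in upward leaf movement, had the most summits, with 8 for DIG1 and 9 for DIG2. At least that many were found at 0.525% of all genes for DIG1 and 0.572% for DIG2. The strongest lay 747 bp (DIG1, chromosome 3, position 1063981, fold 11.9, rank 92) and 745 bp (DIG2, position 1063979, fold 15.8, rank 81) to the right of the gene. These 2 summits were 2 bp apart, and a weak companion sat in the same peak interval 121 and 131 bp outside the gene.

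Apart from a DIG2 summit 4228 bp to the left with a fold of 2.44, the rest of the NAC047 summits formed clusters on both sides. To the left a single interval of each list held 3 summits, at 3243, 2661 and 2116 bp for DIG1 (folds 4.34, 5.73 and 7.91) and at 3228, 2659 and 2122 bp for DIG2 (folds 8.13, 8.81 and 11.3). In both lists the fold was higher the nearer the summit was to NAC047. To the right a second cluster lay at 2600, 3090 and 3756 bp for DIG1 (folds 5.96, 5.22 and 2.19) and at 2597, 3097 and 3731 bp for DIG2 (folds 7.73, 7.56 and 3.89). The right cluster was nearer to the apyrase gene APY1 than to NAC047. The left cluster lies between NAC047 and NAC046, a further senescence NAC gene, and its summit farthest from NAC047 was nearer to NAC046. NAC046 and NAC047 thus share sites in this count.

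NAP, an activator of leaf senescence, had 7 summits of each factor, and all 7 were shared. At least 7 summits were found at 1.20% of all genes for DIG1 and 2.49% for DIG2. The strong sites sat at the gene's ends. At the left end a DIG1 summit lay 26 bp outside (chromosome 1, position 26122054, fold 8.34, rank 491) and a DIG2 summit 28 bp outside (position 26122052, fold 9.23, rank 1408). At the right end a DIG1 summit lay 81 bp outside (position 26123595, fold 8.13, rank 481) and a DIG2 summit 80 bp outside (position 26123594, fold 14.9, rank 70).

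The balance between the ends of NAP differed between the lists. In the DIG1 list the right end had 0.975 times the fold of the left end, and in the DIG2 list 1.61 times. With 1 list per factor this difference has no error and was not tested. In the order of members by −log10 p of the strongest summit, NAP stood sixth for DIG1 and second for DIG2, while the other 9 genes kept the same order among themselves. By highest fold the order held less well, with NAC092 below NAC102 and NAC055 for DIG1 and above both for DIG2, and ATAF1 below NAC032 for DIG1 and above it for DIG2. The DIG2 interval at the left end also took in 3 weaker summits up to 1799 bp outside, while in the DIG1 list the left-end summit had an interval of its own. The weaker DIG1 summits farther left had folds of 4.63, 3.82, 2.32 and 2.68 from left to right, and their DIG2 partners 5.47, 5.07, 3.25 and 3.17. The remaining pair lay inside AT1G69510, 4540 and 4546 bp to the right of NAP, with folds of 3.28 for DIG1 and 4.66 for DIG2.

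**Figure D2:**
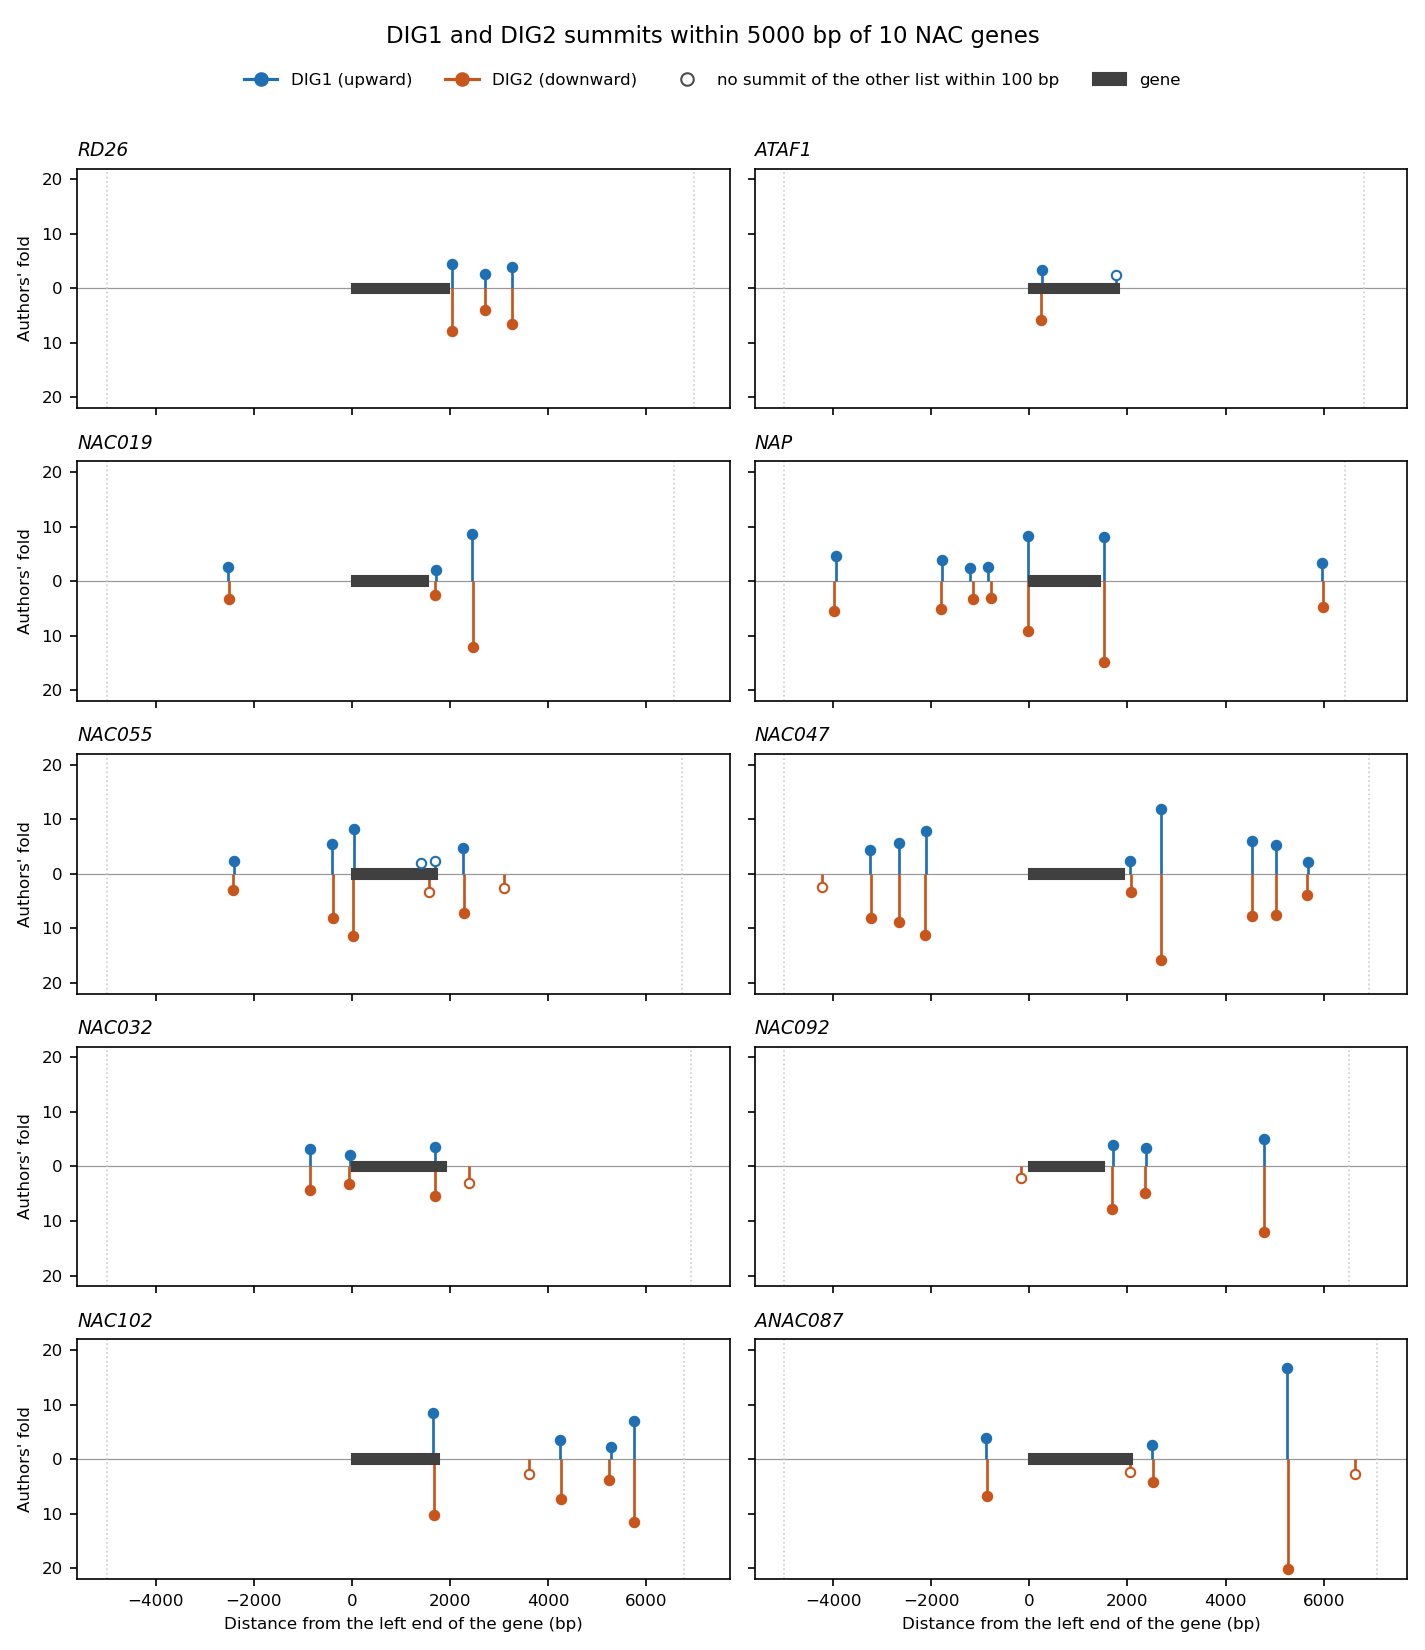
Summits of DIG1 (upward) and DIG2 (downward) at each of the 10 NAC genes, by distance in bp from the left end of the gene (horizontal axis) and by the authors' fold (vertical axis, read within 1 list). The dark bar is the gene, dotted lines are the edges of the window, and open circles are the 3 DIG1 and 8 DIG2 summits with no summit of the other list within 100 bp; the tallest pair lies to the right of ANAC087.

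NAC092, known as ORE1, promotes age-dependent cell death and is restrained by the microRNA miR164 in young leaves. It had 3 DIG1 summits with folds of 3.89, 3.37 and 5.07 at 183, 866 and 3265 bp to the right of the gene. The DIG2 partners had folds of 7.87, 4.92 and 11.96 at 172, 853 and 3280 bp. In both lists the strongest was the distant one (chromosome 5, DIG1 position 15863176, rank 2750, and DIG2 position 15863191, rank 725), and it was nearer to the gene RABG1, at 990 and 975 bp. Position alone does not assign it to either gene. On the left the gene had no DIG1 summit, and a DIG2 summit 167 bp outside had a fold of 2.07 and a −log10 p of 16.6, close to the lowest value in the files.

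The ABA and jasmonate trio differed in the number of summits or in how far the strongest site dominated. Without strand, their layouts relative to the direction of transcription could not be compared. NAC055 had 6 summits of each factor, and its strongest lay just inside the left end of the gene, 38 bp in for DIG1 (chromosome 3, position 5234495, fold 8.29, rank 364) and 29 bp in for DIG2 (position 5234486, fold 11.5, rank 361). A second site 409 and 388 bp outside that end had folds of 5.43 in the DIG1 list and 8.05 in the DIG2 list. On the right, 523 and 537 bp outside, the folds were 4.82 for DIG1 and 7.24 for DIG2. NAC055 therefore carried sites at both ends, as did NAP.

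NAC019, the closest relative of NAC055, had 3 summits of each factor and 1 dominant site. It lay to the right, 900 bp outside for DIG1 (chromosome 1, position 19699382, fold 8.66, rank 244) and 902 bp outside for DIG2 (position 19699384, fold 12.2, rank 174). The other summits were weak, with folds of 2.60 and 2.04 in the DIG1 list and 3.28 and 2.59 in the DIG2 list. The strongest fold was 3.33 times that of the next strongest summit in the DIG1 list and 3.71 times in the DIG2 list. At NAC055 the same ratios were 1.53 for DIG1 and 1.43 for DIG2.

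RD26, which is induced by desiccation and ABA, had a single peak interval of each factor, to the right of and partly over the gene. It held 3 listed summits, and by the lettering of the summit names at least 1 more is absent in each list. The listed DIG1 summits lay 73, 738 and 1294 bp outside (folds 4.51, 2.66 and 4.01). Those of DIG2 lay 68, 731 and 1290 bp outside (folds 7.87, 3.97 and 6.48). The summit next to the gene was the strongest (chromosome 4, DIG1 position 13709243, rank 3158, and DIG2 position 13709238, rank 2133). The middle and the far summit were nearer to AT4G27415. RD26 was thus not among the strongly occupied members, with a DIG1 summit of that strength or stronger at 27.4% of all genes and a DIG2 summit at 18.6%.

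Within the ATAF group, NAC102 stood well above ATAF1 and NAC032 in each list. NAC102, which has been linked to germination under low oxygen, had a DIG1 summit 114 bp inside its right end (chromosome 5, position 25528167, fold 8.41, rank 105) and a DIG2 summit 102 bp inside (position 25528179, fold 10.2, rank 171). All of its other summits lay within the next gene on the right, MUM2, which encodes a beta-galactosidase of seed mucilage. Among them a DIG1 summit 3985 bp to the right of NAC102 had a fold of 6.97, and a DIG2 summit at 3972 bp had a fold of 11.6. By fold the DIG2 site in MUM2 was the stronger, and by −log10 p the site in NAC102 was. Ranked by fold, the highest summit of NAC102 held rank 446 in the DIG1 list, and its highest in the DIG2 list, the one in MUM2, rank 430.

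ATAF1, a regulator of the ABA and carbon starvation responses, had its strongest summit inside the gene. The DIG1 summit lay 261 bp from the left end (chromosome 1, position 268254, fold 3.42, rank 5179) and the DIG2 summit 240 bp from it (position 268233, fold 5.72, rank 3930). It was the only DIG2 summit in the window. DIG1 had 1 more, 50 bp inside the right end, with a fold of 2.43. A DIG2 summit within 5000 bp was found at 71.7% of all genes, so this gene did not stand out.

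NAC032 had the weakest leading summits of the 10 genes by rank in both lists. Its strongest DIG1 summit (chromosome 1, position 29101539) had a fold of 3.65 and rank 6171, and the DIG2 summit at 29101542 had a fold of 5.41 and rank 5765. They lay inside the gene, 220 and 217 bp from its right end. Further DIG1 summits 849 and 44 bp to the left had folds of 3.15 and 2.16, and their DIG2 partners folds of 4.29 and 3.28. The farther of these was nearer to the proteasome subunit gene PBC2. DIG2 alone had a summit 459 bp to the right, with a fold of 3.11, although a DIG1 interval covered that position.

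In number of summits, the members had between 2 and 8 for DIG1 with a median of 3, and between 1 and 9 for DIG2 with a median of 4.5. The median over all genes was 1 for each factor. Of the 10 members, 9 had 3 or more DIG1 summits, against 23.4% of all genes, and 9 had 3 or more DIG2 summits, against 30.6%. NAC055, NAP and NAC047 had 6 or more in each list, against 2.76% of all genes for DIG1 and 5.29% for DIG2. The genes were 1435 to 2096 bp long, and the median length over all genes was 2078 bp.

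**Figure D3:**
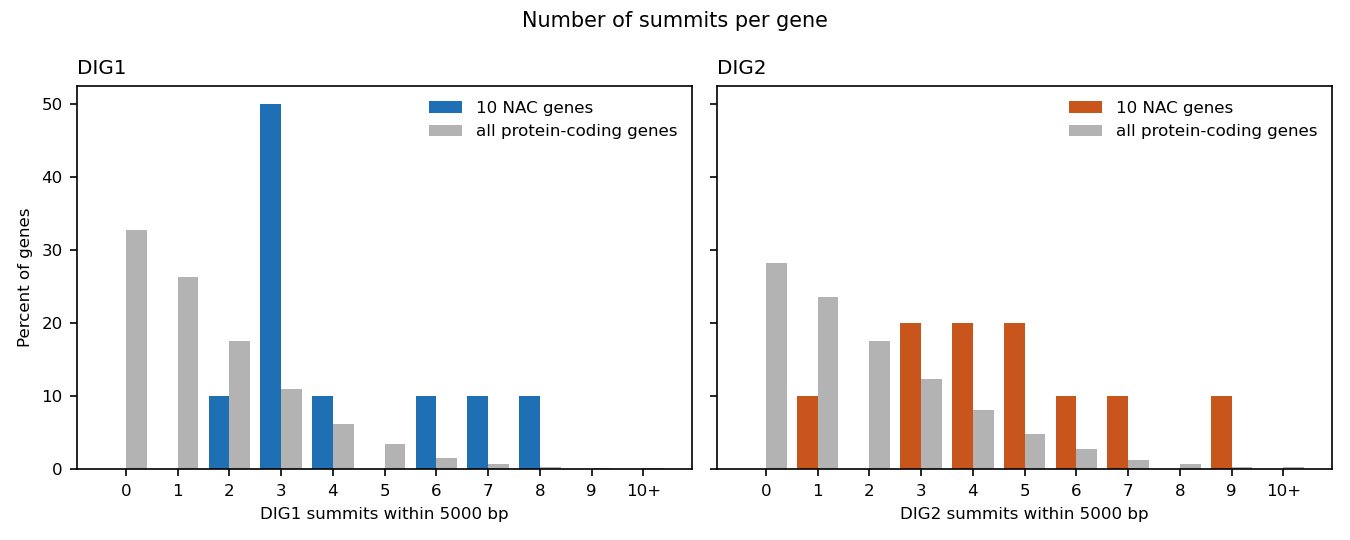
Percent of genes (vertical axis) by the number of summits inside the gene or within 5000 bp (horizontal axis), with the 10 NAC genes as coloured bars left of all 27444 protein-coding genes in grey. For DIG1 (left panel) no NAC gene had fewer than 2 summits, and for DIG2 (right panel) ATAF1 alone had 1.

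Of the DIG1 summits 7 lay inside a member, 14 to its left and 21 to its right. Over the windows of all genes 9.05% of DIG1 summits lay inside, 45.2% to the left and 45.8% to the right. Of the DIG2 summits 6 lay inside a member, 16 to the left and 25 to the right, against 9.16% inside, 45.1% left and 45.7% right over all genes. Since no strand was used, the sides say nothing about promoters. A DIG1 summit lay inside 4 members, against 11.9% of all genes, and a DIG2 summit inside 5, against 14.2%. The strongest summit by −log10 p lay inside the gene at NAC055, NAC032, NAC102 and ATAF1 and to the right at the other 6, in both lists. Among all genes with a summit in the window, the strongest DIG1 summit was inside the gene in 7.93%, to the left in 45.5% and to the right in 46.5%. For DIG2 these shares were 7.73%, 45.8% and 46.5%. A summit from 1000 bp outside to 200 bp inside each end, a rule chosen after the values were seen, was present at both ends for NAC055, NAP and ANAC087 in the DIG1 list, against 5.76% of all genes. In the DIG2 list it was present at both ends for these genes and for NAC032 and NAC092, against 7.75% of all genes. NAC092 was counted at its left end only through a DIG2 summit with a fold of 2.07. NAC032 had a DIG1 summit 220 bp inside its right end, just past the edge of the rule. Another protein-coding gene was nearer than the member for 16 DIG1 and 18 DIG2 summits.

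Just inside the edge of the window lay a DIG1 summit 4540 bp from NAP (fold 3.28) and a DIG2 summit 4554 bp from ANAC087 (fold 2.74). Just outside it were a DIG1 summit 5865 bp from NAC055 (fold 5.49) and a DIG2 summit 5843 bp from that gene (fold 7.92). No summit lay between 4554 and 5843 bp from a member, so an edge anywhere in that range gives the same counts.

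Sharing between the factors was close in position. Of the 42 DIG1 summits 39 (92.9%) had a DIG2 summit within 100 bp, against 94.7% of the whole DIG1 list. Of the 47 DIG2 summits 39 (83.0%) had a DIG1 summit within 100 bp, against 77.0% of the whole DIG2 list. Sharing at these genes was thus near that of the lists as a whole. The partners were a median of 10 bp apart, with a range of 1 to 76 bp, and 34 of 39 were within 25 bp, against a median of 11 bp over each whole list. The strongest summits of the lists by −log10 p were partners at all 10 members, against 86.5% of all genes with a summit of both. By fold they were partners at 8 members, against 85.9% of all genes, the exceptions being NAP and NAC102. The lists have the antibody in common and may have a control in common, and the part of this in the sharing was not tested.

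**Figure D4:**
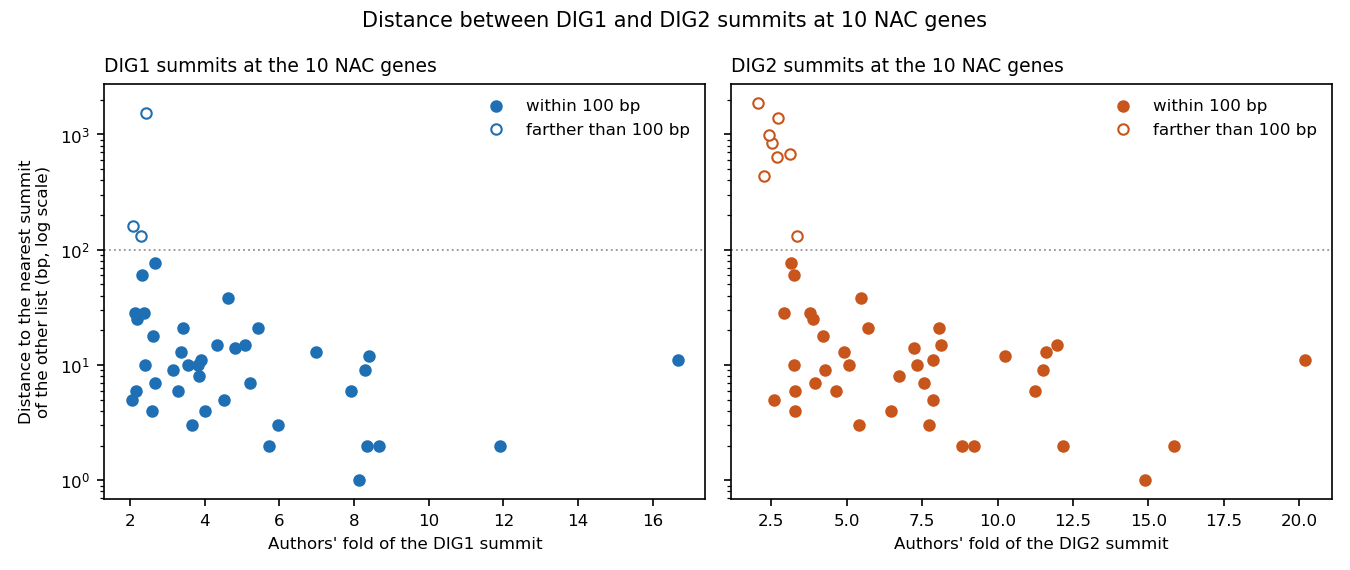
Distance in bp on a log scale (vertical axis) from each DIG1 summit (left) and each DIG2 summit (right) at the 10 NAC genes to the nearest summit of the other list, by the authors' fold (horizontal axis). Open circles, above the dotted line at 100 bp, are summits without a partner, and all of them have folds at or under 3.36.

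The summits without a partner had low folds. For DIG1 they had folds of 2.07 and 2.30 inside NAC055 and 2.43 inside ATAF1. For DIG2 the 8 folds ranged from 2.07 to 3.36 with a median of 2.62, against 6.74 for the DIG2 summits with a partner. Over the whole lists the median fold without a partner was 2.36 for DIG1 and 2.47 for DIG2, against 3.25 and 4.51 with one. Some summits with a partner were as weak, such as a DIG1 summit at NAC019 with a fold of 2.04. The DIG2 summit with a fold of 3.36, inside NAC055, lay between the unpartnered DIG1 summits of that gene, 160 and 132 bp away, and the intervals of the lists overlapped there.

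The names of the intervals in the deposited lists have gaps. Intervals are numbered in order along the genome, and 7590 of the 18933 DIG1 numbers (40.1%) and 4859 of the 18299 DIG2 numbers (26.6%) are absent. No −log10 p in the files lies under 16. Between the listed DIG2 intervals on either side of the unpartnered DIG1 summit inside ATAF1, 2 interval numbers are absent. Some DIG2 summits without a partner also had at least 1 DIG1 interval number absent between the flanking listed DIG1 intervals. They were those at NAC092, NAC102, NAC047, the right side of NAC055 and the right side of ANAC087. An absent number can belong anywhere between the flanking intervals. The share of such gaps over all unpartnered summits was not computed. At NAC032 and inside ANAC087 the DIG1 interval over the summit lacks 1 of its lettered summits. Over all members 3 DIG1 and 5 DIG2 intervals lack a lettered summit, among them the RD26 interval of each list and the DIG2 interval of the right NAC047 cluster. Summit counts in these intervals can be incomplete. The positions and strengths of the absent calls cannot be read from the files.

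Members often carried several summits in 1 interval. At these genes 9 of 28 DIG1 intervals held 2 or more summits, against 14.5% of the whole list, and 11 of 31 DIG2 intervals did, against 17.2%. Neighbouring summits of an interval were a median of 562 bp apart for DIG1 and 592 bp for DIG2. Over the whole lists the medians were 539 and 561 bp.

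Other stress and senescence NAC genes were mixed. Of 18 such genes that are not members, 12 had a DIG1 summit and 11 a DIG2 summit within 1000 bp, against 37.7% and 42.3% of all genes. In each list 4 held one of the 1000 strongest within 1000 bp, against 3.82% of all genes for DIG1 and 3.36% for DIG2. The strongest were at ATAF2 (folds 10.3 for DIG1 and 13.7 for DIG2, summits inside the gene), NAC041 (folds 9.61 and 14.8) and NAC062, a membrane-bound NAC factor of the stress response (folds 9.03 and 11.8). No summit lay within 5000 bp of NAC016, NAC036 and NAC090 in both lists, or of NAC013 in the DIG2 list. Within the ATAF group, ATAF2 and NAC102 thus held summits among the 1000 strongest of each list, and ATAF1 and NAC032 did not.

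Of 17 genes that act downstream in senescence, or are held back by it, 8 had a DIG1 summit and 11 a DIG2 summit within 1000 bp, against 37.7% and 42.3% of all genes. None had one of the 1000 strongest of either list within 1000 bp (3.82% of all genes for DIG1 and 3.36% for DIG2), and 1 gene, SAG113, had one within 5000 bp in each list (10.7% and 9.71%). With 17 genes these counts among the 1000 strongest are near the shares over all genes. The strongest within 1000 bp were at GLK2, a chloroplast development factor (folds 5.84 for DIG1 and 6.90 for DIG2), SAG113, a phosphatase gene that is a target of NAP (5.83 and 8.24), and the chlorophyll breakdown gene ACD2 (5.11 and 6.27). Within 5000 bp, 11 of the 17 genes had a DIG1 summit and 14 a DIG2 summit, against 67.3% and 71.7% of all genes. RNS3, SAG13 and NYE2 had no summit of either list within that distance, and further genes lacked a DIG1 summit only.

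Of 19 regulators that act upstream of members, 16 had a DIG1 summit and all 19 a DIG2 summit within 1000 bp, against 37.7% and 42.3% of all genes. Like the members and other lists, this list was chosen with earlier results of these data known, so high counts are not independent support. It also holds 3 microRNA genes, while the shares are over protein-coding genes. In each list 4 held one of the 1000 strongest within that distance, against 3.82% for DIG1 and 3.36% for DIG2. The strongest were at the ABA factor gene ABF3, which tops the DIG1 list by −log10 p (folds 15.6 and 16.7), at the clock gene CCA1 (folds 8.66 for DIG1 and 11.7 for DIG2) and at PIF5 in the DIG1 list (7.43) or MYC2, a jasmonate factor gene, in the DIG2 list (11.4). The 3 miR164 genes in this list had folds of 2.12 and 2.96 for DIG1 at MIR164B and MIR164C and of 2.79, 2.47 and 4.28 for DIG2 at MIR164A, MIR164B and MIR164C, all within 1000 bp. MIR164A had no DIG1 summit within 5000 bp.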

How the data were processed

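Binding sites were measured by ChIP-seq of GFP fusions of DIG1 and DIG2, 1 sample each. Bowtie 0.12.7, MACS2 and the TAIR10 build were used, per the submitters' processing notes. Which MACS2 version and control were used, and whether replicates were pooled, is not stated, and depth is unknown. The deposited narrowPeak files give for every summit the authors' fold (a ratio) over the modelled background, −log10 p, −log10 q and a score. The score equals 10 times the −log10 q rounded down, for 16561 of 16562 DIG2 summits and all DIG1 summits. The score was not used.

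Summit positions (interval start plus offset) were counted from 1. Gene places came from a RefSeq table of TAIR10.1, whose coordinates are not printed. Among shifts of the summits by up to 1000 bp (step 100 bp), a shift of 0 put the fewest inside genes in both lists. All 10 member names and all 54 names of the other gene lists matched that table. Partners are summits of the lists within 100 bp. All members are described. From each other list the text names up to 3 genes with the highest −log10 p within 1000 bp, and genes without a summit where there were 4 or fewer. The miR164 genes were named after their values were seen. The members and lists were chosen with earlier results of these data known. The window, partner and overlap rules were tested on simulated data. The planned motif search was not run, since no sequence was used here. Python 3.11.15 with pandas 2.3.3 was used.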

Additional observations from a re-analysis of the deposited data

How the results depend on the processing

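All 10 genes kept a summit of both factors with 1000 bp and 3000 bp windows, a −log10 p of at least 30, the strongest summit of each interval, lists of equal length and the nearest gene only. Among the 1000 strongest summits 6 had a DIG1 and 7 a DIG2 summit. The number of summits depended on the rule: 24 DIG1 and 25 DIG2 summits with the 1000 bp window, 26 and 29 with the nearest gene only, and 8 and 9 among the 1000 strongest. With the strongest summit of each interval 28 DIG1 and 31 DIG2 summits were left. Over the other partner rules, 37 to 41 of 42 DIG1 and 37 to 42 of 47 DIG2 summits had a partner. With a −log10 p of at least 30 in both lists, 31 of the 31 DIG1 and 31 of the 44 DIG2 summits left had one, and with lists of equal length 39 of 42 DIG1 and 39 of 44 DIG2 summits. Ranked by fold, 6 members for DIG1 and 7 for DIG2 held one of the 1000 strongest summits, as by −log10 p, and 7 of 20 member ranks moved by over 1.5 times. These were DIG1 ranks at NAC019 (389 by fold), NAC102 (446) and ANAC087 (1), and DIG2 ranks at NAC019 (316), NAC102 (430), NAC047 (36) and NAC092 (352). The DIG2 rank of 430 belongs to the summit in MUM2, and the DIG2 summit inside NAC102 held rank 832 by fold. No paired analysis was possible because there is 1 list per factor. Unknown depth limits any comparison of strength between the lists.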
